A study of Mus musculus with 15 samples.

Results

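The nuclear genes of the respiratory chain were taken as the protein-coding genes on nuclear chromosomes whose symbols begin with Ndufa, Ndufb, Ndufc, Ndufs, Ndufv, Uqcr, Cox4i, Cox5 to Cox8 or Atp5, together with Sdha to Sdhd. Assembly factors whose symbols begin with Ndufaf or Sdhaf were left out. The rule used names only and found 86 of the 55385 genes in the count table, 38 of complex I, 4 of complex II, 8 of complex III, 18 of complex IV and 18 of complex V. A further 13 genes with matching symbols were annotated as pseudogenes or non-coding RNA and were not taken, among them Ndufb1-ps with 10701 counts over all libraries. Of the 86 members, 78 passed the filter on low counts (CPM, counts scaled to the library total, above 1 in at least 2 libraries) and were tested. The CPM levels reported below were also scaled by the normalization factor of each library.

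The respiratory chain sits in the inner mitochondrial membrane. Complex I (NADH dehydrogenase) and complex II (succinate dehydrogenase) pass electrons to ubiquinone, complex III (cytochrome bc1) passes them to cytochrome c, and complex IV (cytochrome c oxidase) passes them to oxygen. Complexes I, III and IV pump protons, and complex V (ATP synthase) uses the gradient to make ATP. Most subunits are encoded in the nucleus and a smaller set in mitochondrial DNA. In macrophages the balance between respiration and glycolysis is known to shift with activation.

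The RNA-seq libraries were from bone marrow-derived macrophages of BALB/c mice aged 6 weeks, either STAT5 fl/fl, with loxP-flanked Stat5 alleles, or STAT5 cKO, with the same alleles and the Csf1r-iCre transgene. Cells were kept for 2 h in serum-free DMEM, in DMEM with 20 ng/mL recombinant mouse GM-CSF, a cytokine that activates STAT5, or in medium conditioned by 4T1 cells (4T1 CM), a mouse mammary carcinoma line. There were 15 libraries, 2 per treatment from STAT5 fl/fl mice (112 and 113) and 3 per treatment from STAT5 cKO mice (114, 115 and 116). Each mouse number appears under all 3 treatments, and every comparison with DMEM in a genotype shares its DMEM libraries. The Csf1r promoter that drives Cre is not limited to macrophages, and the transgene was present in STAT5 cKO mice alone, so its presence and the loss of STAT5 cannot be told apart.

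Library totals ran from 16016736 to 22883108 counts, of which the 86 members took 0.480 to 0.581%. Stat5a was at 29.0 to 45.1 CPM in the STAT5 fl/fl libraries and 0 to 0.142 CPM in the STAT5 cKO libraries, and Stat5b at 60.9 to 77.8 against 0 to 0.189 CPM, so all 15 libraries matched their labelled genotype. The 7 macrophage markers were detected throughout, with a sum of 23853 to 27206 CPM in STAT5 fl/fl and 29977 to 42693 CPM in STAT5 cKO libraries, of which Lyz2 made up most. Sums of T cell, mast cell and erythroid markers were at most 0.103 CPM. Ighm, an immunoglobulin heavy chain gene of B cells, was at 80.1 and 66.8 CPM under DMEM, 62.1 and 53.6 CPM under GM-CSF and 46.4 and 36.2 CPM under 4T1 CM in STAT5 fl/fl libraries. In STAT5 cKO libraries it was at 64.2 to 97.7, 54.0 to 83.2 and 34.3 to 67.7 CPM, so it too was lowest under 4T1 CM in each mouse. Under DMEM the 4 B or plasma cell markers together summed to 66.9 to 80.3 CPM in STAT5 fl/fl libraries. In STAT5 cKO libraries under DMEM they summed to 64.3 to 97.9 CPM. Ighm thus made up nearly all of these sums, and the other B or plasma cell markers stayed near 0. The 5 epithelial markers summed to at most 0.137 CPM under DMEM in both genotypes. Under GM-CSF the sum was 1.18 to 1.43 CPM in STAT5 fl/fl and at most 0.0491 CPM in STAT5 cKO libraries, and under 4T1 CM it was 3.16 to 4.34 and 1.23 to 2.17 CPM, nearly all Cdh1, while Epcam and the keratins stayed at a few counts. Whether these signals have any part in the results below was not tested. In bulk RNA a smaller share of a cell type and less RNA per cell cannot be told apart.

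Levels were compared between genes per length, as RPKM (CPM per kilobase of exon). The median of the 78 tested members over all libraries was 27.7 RPKM, against 5.79 RPKM for all 13005 tested genes, and 73 members lay above the latter value. Complex IV held the highest level, Cox8a at 159 RPKM, close to Cox6b1 at 158 and Cox4i1 at 149 RPKM, and its lowest tested member was Cox7a1 at 1.78 RPKM. In complex V, Atp5a1 (the α subunit of the catalytic head) reached 157 RPKM and Atp5b (the β subunit) 106 RPKM, whereas Atp5s, known as coupling factor B, was lowest at 1.07 RPKM. Complex I ran from Ndufb2 at 2.64 to Ndufa2 at 86.3 RPKM, both accessory subunits. Complex II ran from the membrane anchor Sdhc at 26.0 to the other anchor Sdhd at 66.9 RPKM, and complex III from Uqcrq at 18.4 to Uqcrh at 83.2 RPKM. The catalytic and redox subunits were spread between these ends, with Ndufs1 at 9.73, Ndufv1 at 19.3, Sdhb at 45.8, Uqcrfs1 at 48.7 and Sdha at 52.3 RPKM. Reads of low mapping quality were not counted, so genes that share sequence with processed pseudogenes may be undercounted, and levels between genes carry that limit. Exon length was summed over the annotated exons of a gene, 5628 bases for Ndufb2 and 572 bases for Ndufa2. It may exceed the length of the transcript in use, which would lower the RPKM.

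Where a subunit has several genes, 1 form usually made up nearly all of the reads. Cox4i1 stood at 149 RPKM and its alternative form Cox4i2, known from lung, had 10 counts in all libraries together. The muscle forms Cox6a2 with 46 counts and Cox8b with 0 counts, and the testis forms Cox6b2 with 183, Cox7b2 with 0 and Cox8c with 0 counts, contrasted with Cox6a1 at 119, Cox6b1 at 158, Cox7b at 40.8 and Cox8a at 159 RPKM. In a single library a count of 0 still leaves room for an expected count of up to about 3. Cox7a1, the muscle form of its subunit, passed the filter at 1.78 RPKM beside Cox7a2 at 50.3 RPKM and the supercomplex factor Cox7a2l at 114 RPKM. Ndufa4 stood at 43.8 RPKM and the hypoxia-linked Ndufa4l2 had 4 counts. Of the 3 genes for the same subunit c protein, Atp5g3 was highest at 38.96 RPKM, followed by Atp5g2 at 20.5 and Atp5g1 at 5.34 RPKM. Their summed exon lengths were 2181, 1675 and 4912 bases, so this order carries the limit of length as well. The 8 members that were not tested were these 7 genes with few or no counts and an additional Atp5o entry with 0 counts.

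**Figure D1:**
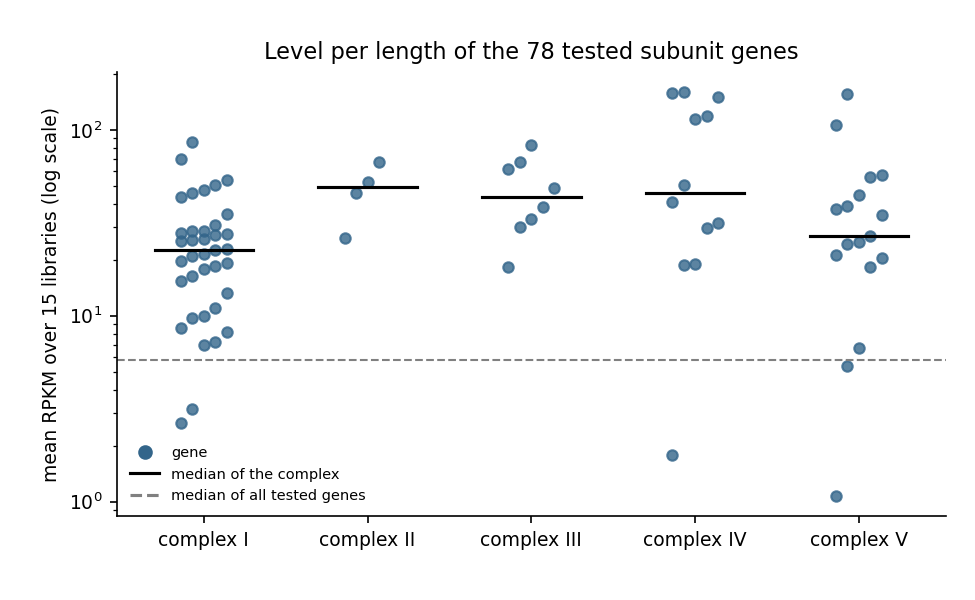
Mean level of each tested member over the 15 libraries, as RPKM on a log axis, by complex. Each point is 1 gene. Complex IV and V span the widest range, from Cox7a1 and Atp5s near 1 to 2 RPKM up to Cox8a at 159 and Atp5a1 at 157 RPKM.

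The 4T1 CM comparison asked how macrophages respond to soluble factors from tumor cells. In STAT5 fl/fl cells 27 of 78 members (34.6%) rose against DMEM at an adjusted p under 0.01, where 19.2% of all tested genes were called higher. By edgeR 0 of 78 fell, against 18.2% of all genes, with 1 member lower at an unadjusted p under 0.05 and 0 called lower by DESeq2. The median log2 fold change was 0.28 over members and 0.02 over all genes, and 72 of 78 members were above 0. In 65 members both 4T1 CM libraries lay above both DMEM libraries, which held for 37.9% of all genes. The changes were small, with the largest called fold at 1.65. Without mouse 112, and likewise without mouse 113, the share of members called higher was below that of all genes. These fits had 1 STAT5 fl/fl library left per treatment. The median was 0.26 without mouse 112 and 0.27 without mouse 113. Of the 10 members with the smallest adjusted p, Uqcrq alone kept its call under all 16 alternatives run, and the others each lost it without mouse 112 or without mouse 113.

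Uqcrq (chr11:53427922-53430831, GRCm38), a small complex III subunit near the ubiquinone site, measured 20.5 and 25.9 CPM under DMEM and 37.4 and 39.2 CPM under 4T1 CM in STAT5 fl/fl cells. Its DMEM libraries lay well below the others, and the log2 fold change was 0.72 ± 0.12 (SE, adjusted p = 7.34e-05), or 1.65-fold. Uqcr10, another small subunit, rose by 0.47, and the remaining 6 members of complex III did not pass, among them the Rieske protein gene Uqcrfs1.

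In complex IV 6 of 12 members rose, with a median log2 fold change of 0.40. Cox7c (chr13:86044816-86046904), a small accessory subunit, measured 15.9 and 17.8 CPM under DMEM and 26.7 and 26.6 CPM under 4T1 CM. The groups did not overlap and the log2 fold change was 0.66 ± 0.11 (adjusted p = 8.02e-05), or 1.58-fold. Cox7a2 rose by 0.53 (adjusted p = 0.00102), Cox8a by 0.50, Cox6b1 by 0.42 (adjusted p = 0.000755), Cox6a1 by 0.38 (adjusted p = 0.000659) and Cox7b by 0.33. All 6 are nuclear accessory subunits in the ubiquitous form, and all 12 tested members of complex IV were above 0.

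In ATP synthase 8 of 17 members rose, with a median of 0.32. Atp5d (chr10:80138632-80145818), the δ subunit of the central stalk, stood at 76.1 and 74.4 CPM under DMEM and at 103 and 107 CPM under 4T1 CM. The libraries separated without overlap, and the log2 fold change was 0.48 ± 0.09 (adjusted p = 0.000173). Atp5e, the ε subunit of the same stalk, moved from 43.8 and 43.3 to 61.7 and 73.0 CPM, a log2 fold change of 0.63 ± 0.13 (adjusted p = 0.000859). Atp5f1, the b subunit of the peripheral stalk, rose by 0.36 ± 0.07 (adjusted p = 0.000262), and Atp5l, subunit g of the membrane part, by 0.44 ± 0.09 (adjusted p = 0.000746). Among the subunit c genes Atp5g1 rose by 0.42. Of the subunits that carry out catalysis, Atp5a1 at 448 and 474 against 503 and 518 CPM and Atp5b at 376 and 381 against 426 and 437 CPM did not pass, though in both genes the groups did not overlap.

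Complex I divided by role. When its members were sorted into the 7 core subunits, which carry the redox centres, and the 30 accessory subunits (a grouping written after the values had been seen), 0 core members and 9 accessory members were called higher, and the difference between the groups was not tested. The core median was -0.03, from -0.08 to 0.24, and the accessory median was 0.26 with 29 of 30 above 0. Ndufs1, the largest core subunit, measured 74.8 and 74.0 CPM under DMEM and 74.98 and 70.5 CPM under 4T1 CM, with the groups overlapping. Ndufv1, the NADH-binding flavoprotein, had the highest core value at 45.4 and 45.6 against 52.8 and 54.7 CPM. By contrast Ndufa2 (chr18:36742332-36744557), an accessory subunit, measured 33.0 and 39.2 against 48.8 and 59.9 CPM, with no overlap and a log2 fold change of 0.59 ± 0.12 (adjusted p = 0.000582). The other called accessory genes were Ndufa3, Ndufa4, Ndufa5, Ndufa7, Ndufa11, Ndufb6, Ndufb8 and Ndufc1, with log2 fold changes of 0.30 to 0.56. Ndufa4, which keeps its complex I name, is now known as a subunit of complex IV.

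Complex II gave 2 of 4 called higher. Sdhb, the iron-sulfur subunit, rose by 0.38, from 88.4 and 90.0 to 114 and 118 CPM, and Sdhc rose by 0.27. Sdha, the flavoprotein that oxidises succinate, measured 213 and 223 CPM under DMEM and 203 and 197 CPM under 4T1 CM, slightly lower in both libraries and not called.

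**Figure D2:**
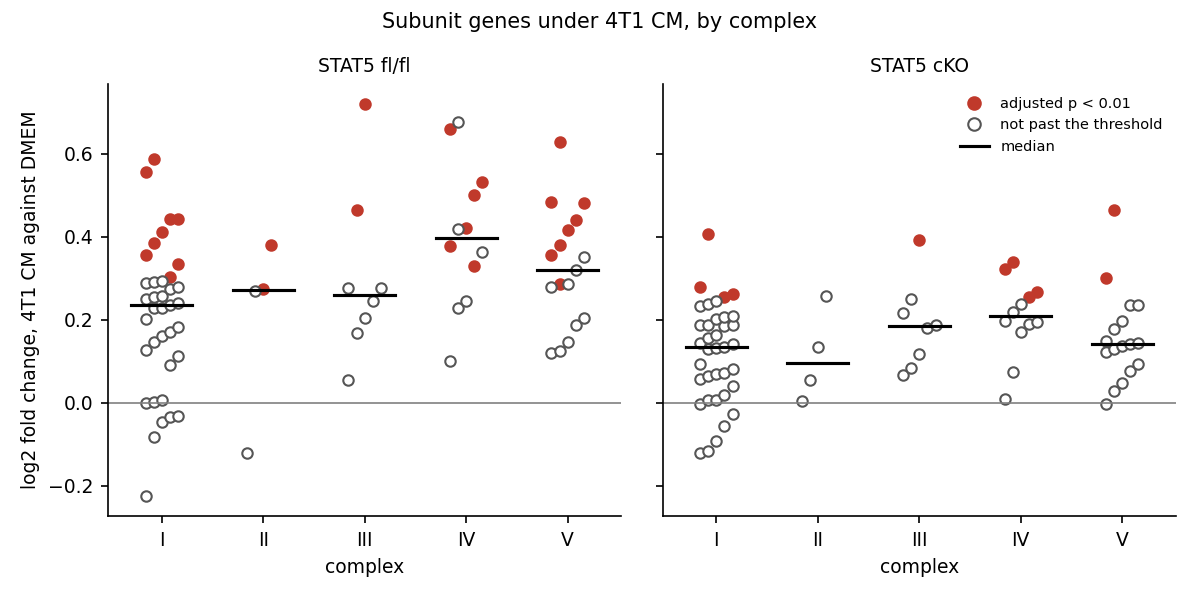
Log2 fold change of each tested member under 4T1 CM against DMEM, by complex, in STAT5 fl/fl and STAT5 cKO cells. Each point is 1 gene, with called members (adjusted p under 0.01) marked. In STAT5 fl/fl cells 27 of 78 members were called higher and in STAT5 cKO cells 11, none lower.

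Members are short transcripts, with a median exon length of 1697 bases against 4145 bases for all tested genes, and length moved with the response. With all tested genes divided by length into 10 bins of near-equal size, the median log2 fold change under 4T1 CM in STAT5 fl/fl cells ran from 0.26 in the bin of shortest genes (median length 772 bases) to -0.17 in the longest (12044 bases). The 1967 genes no longer than the median member had a median of 0.24, close to the members' 0.28, and 19.7% of them were called higher, against 34.6% of members. Across the 78 members Spearman's rho between length and log2 fold change was -0.36, and across all tested genes -0.21, as a description of genes that share these libraries. The 15 accessory complex I genes within the core genes' range of lengths (1291 to 8086 bases) had a median of 0.23, with 4 called. The part of length in the response of the members was not tested.

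**Figure D3:**
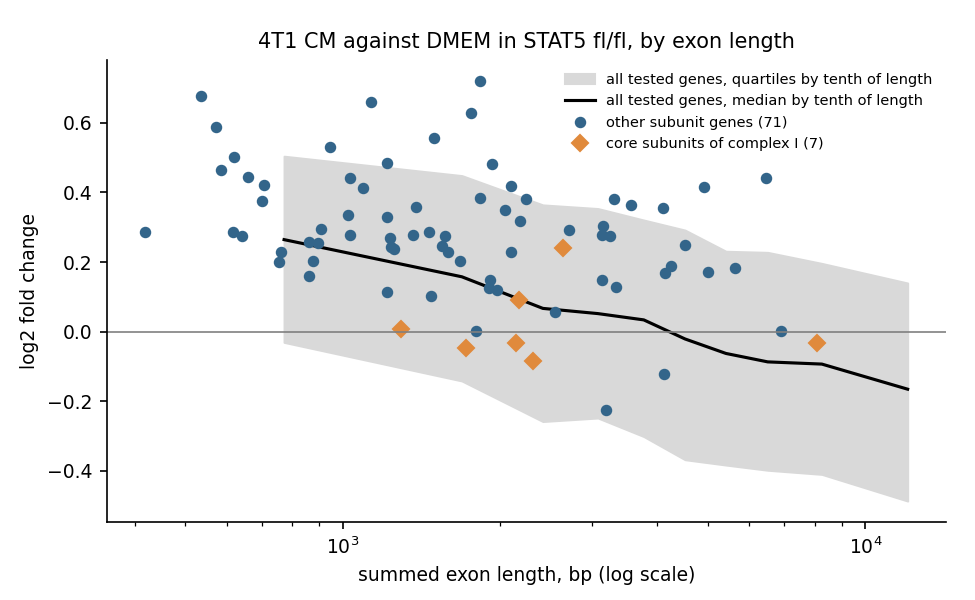
Exon length in bases (log axis) against log2 fold change under 4T1 CM in STAT5 fl/fl cells, with members as points and the median and quartiles of all tested genes in 10 bins by length. The medians of all genes fall from 0.26 in the shortest bin to -0.17 in the longest, and most members lie above 0.

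In STAT5 cKO cells 11 of 78 members (14.1%) rose under 4T1 CM, against 19.3% of all genes. By edgeR 0 fell, against 18.4% of all genes, with 0 members lower at an unadjusted p under 0.05 and 0 called lower by DESeq2. The median was 0.15 over members and 0.01 over all genes, and 71 of 78 were above 0. The 1967 genes no longer than the median member also had a median of 0.15, and 16.0% of them were called higher. In 19 members the 3 libraries under 4T1 CM lay above all 3 under DMEM, against 27.7% of all genes. The called share was thus below that of all genes, and 8 of the 11 (Atp5d, Atp5f1, Cox6a1, Cox6b1, Cox7c, Cox8a, Ndufa7 and Uqcrq) were also among the 27 called in STAT5 fl/fl cells.

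Atp5d measured 68.7, 78.6 and 75.4 CPM under DMEM and 99.6, 114 and 93.9 CPM under 4T1 CM in STAT5 cKO cells. All 3 mice were higher under 4T1 CM with no overlap, and the log2 fold change of 0.46 ± 0.07 (adjusted p = 2.86e-05) was beside 0.48 in STAT5 fl/fl cells. Atp5f1 rose from 97.3, 105 and 106 to 124, 132 and 125 CPM, by 0.30 ± 0.05 (adjusted p = 0.000161). Ndufa12, an accessory complex I subunit, rose from 9.80, 8.97 and 10.5 to 13.6, 12.3 and 13.003 CPM, by 0.41 ± 0.09 (adjusted p = 0.00125). Uqcrq measured 28.3, 31.3 and 30.2 against 36.1, 45.2 and 36.7 CPM, a rise of 0.39 (adjusted p = 0.00211). Its DMEM libraries lay above those of STAT5 fl/fl cells, and its level under 4T1 CM was similar. The other called members were Cox6a1 with 0.27, Cox7c with 0.32, Ndufa13 with 0.28, Cox6b1 with 0.26, Cox8a with 0.34, Ndufa7 with 0.26 and Ndufs4 with 0.26, of which Cox8a overlapped between groups, since mouse 115 was at 103 CPM under DMEM and mouse 116 at 102 CPM under 4T1 CM. With the mouse as a replicate block the call of Ndufs4 was lost and Atp5b with 0.19 and Sdhb with 0.26 were called.

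Mouse 116 stood apart. Comparing each mouse with itself, 73 and 70 of 78 members were higher under 4T1 CM than under DMEM in mice 112 and 113, 72 and 73 in mice 114 and 115, and 26 in mouse 116. The median differences were 0.27 and 0.26 in the STAT5 fl/fl mice, 0.23 and 0.28 in mice 114 and 115 and -0.05 in mouse 116. The DMEM library of mouse 116 had the highest member median of the 5 DMEM libraries and its 4T1 CM library the lowest of the 5 under 4T1 CM. Without mouse 116 the count in STAT5 cKO cells was 18, where 15.5% of all genes were called higher, and the median was 0.25. Without mouse 114 the count was 4, where 16.5% of all genes were called higher, and without mouse 115 it was 2, where 15.2% were. Without mouse 112 or without mouse 113 the median in STAT5 cKO cells was 0.14. Of the 10 called members with the smallest adjusted p, Atp5d and Atp5f1 kept their calls under all 16 alternatives.

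**Figure D4:**
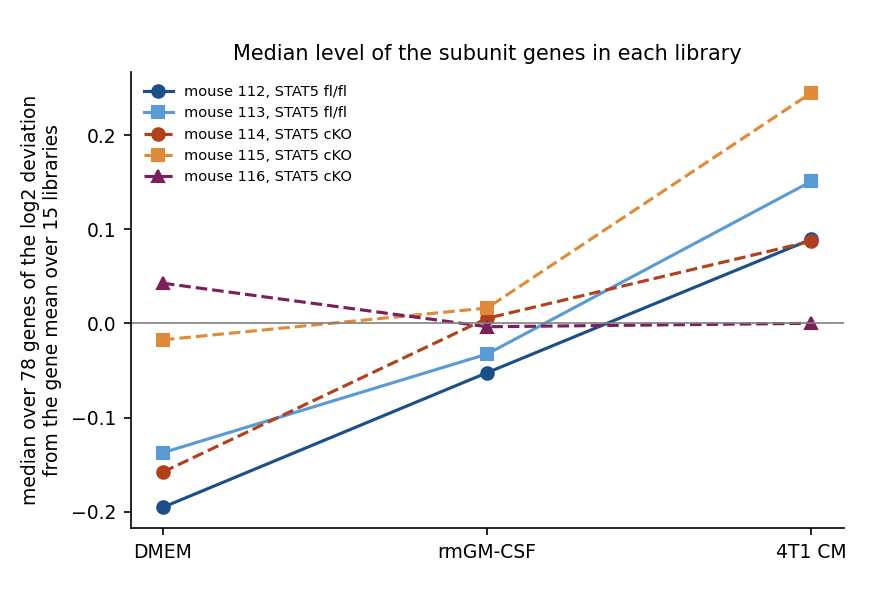
Median over the 78 tested members of each library's deviation (log2 units) from the gene's mean over all libraries, by treatment, with lines joining libraries of the same mouse. Mice 112, 113, 114 and 115 lie higher under 4T1 CM than under DMEM, and mouse 116 stays near 0 in all 3 treatments.

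The responses of the genotypes were compared by the interaction of genotype and treatment. For 4T1 CM edgeR called 0 of 78 members, against 1.27% of all genes, with 6 at an unadjusted p under 0.05 and 0 called by DESeq2. The median interaction was -0.13, the response in STAT5 cKO cells being the smaller, and it was -0.03 without mouse 116. The smallest adjusted p was 0.184, for Atp5g1 at -0.32, and the other 5 were Atp5e, Ndufa2, Ndufb6, Cox7c and Uqcrq with -0.45 to -0.33. No member's response was thus called different between the genotypes.

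Promoter sequences were examined since several members moved together. RefSeq promoters (GRCm38.p6, 250 bases before to 50 after the start) matched 67 members. The motifs searched on both strands are known binding sequences of factors tied to respiratory genes, to STAT proteins or to hypoxia. CGCATGCG, the core of the NRF1 site, was in promoters of 9 members, 13.4% against 2.07% of all 27025 genes with a promoter. AAGATGGCG, for YY1, was in 7, or 10.4% against 1.64%. CCGGAAG, for ETS factors such as GABPA, was in 16, or 23.9% against 9.93%. TGACGTCA, for CREB, was in 4, or 5.97% against 2.03%. GGGCGG, for SP1, was in 27, or 40.3% against 38.2%, and ACGTG, for hypoxia-inducible factors, in 16, or 23.9% against 21.8%. TTCNNNGAA, the STAT motif, which reads the same on both strands, was in 4 (Atp5d, Atp5o, Ndufa8 and Ndufb6), or 5.97% against 9.55%. Of 22 matched members called under 4T1 CM in STAT5 fl/fl cells, 8 held the ETS motif, 3 the NRF1 core and 2 the STAT motif, and of 42 matched members tested and not called, 8, 6 and 2 did. A match describes letters and not binding. The 27025 genes include genes not tested here, so they are not a set of like level to the members.

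The 150 bases before the start are printed for the 6 members called under 4T1 CM in both genotypes whose promoter was in the table, 5′ to 3′, with searched motifs in capitals. They are the STAT motif in Atp5d, the ETS motif and 2 copies of the SP1 motif in Cox6a1, the ETS motif in Cox6b1 and the hypoxia motif, on both strands, in Ndufa7. None of these letters was found in the stretches shown for Cox7c and Cox8a. The starts are those of RefSeq, and for Atp5d and Cox7c they lie inside the intervals given above for the counted genes.
Atp5d, chr10:80142125-80142274, plus strand: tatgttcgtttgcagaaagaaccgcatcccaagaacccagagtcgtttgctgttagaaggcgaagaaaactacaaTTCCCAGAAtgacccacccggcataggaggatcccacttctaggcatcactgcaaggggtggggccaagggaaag
Cox6a1, chr5:115348959-115349108, minus strand: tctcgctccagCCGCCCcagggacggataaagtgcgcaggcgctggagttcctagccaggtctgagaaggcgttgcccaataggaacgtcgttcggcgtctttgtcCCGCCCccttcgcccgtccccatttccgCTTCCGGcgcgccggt
Cox6b1, chr7:30626115-30626264, minus strand: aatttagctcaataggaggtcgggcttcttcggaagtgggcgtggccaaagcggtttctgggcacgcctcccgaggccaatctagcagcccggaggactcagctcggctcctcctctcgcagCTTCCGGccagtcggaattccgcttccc
Cox7c, chr13:86046796-86046945, minus strand: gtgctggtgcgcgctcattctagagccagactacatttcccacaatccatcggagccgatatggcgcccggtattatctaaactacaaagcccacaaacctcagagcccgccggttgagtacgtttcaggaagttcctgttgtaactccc
Cox8a, chr19:7217617-7217766, minus strand: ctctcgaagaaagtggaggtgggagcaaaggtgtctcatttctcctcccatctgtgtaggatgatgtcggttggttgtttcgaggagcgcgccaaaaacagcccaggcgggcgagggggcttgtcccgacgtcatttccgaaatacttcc
Ndufa7, chr17:33824422-33824571, plus strand: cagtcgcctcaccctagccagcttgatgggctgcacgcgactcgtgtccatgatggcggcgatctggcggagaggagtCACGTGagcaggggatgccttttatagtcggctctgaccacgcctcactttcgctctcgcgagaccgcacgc

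With GM-CSF alone the members hardly moved. In STAT5 fl/fl cells edgeR called 1 of 78 higher, against 15.9% of all genes, and 0 lower, against 12.6%, with 2 lower at an unadjusted p under 0.05 and 0 by DESeq2. That gene was Uqcrq, at 20.5 and 25.9 CPM under DMEM and 35.7 and 33.1 CPM under GM-CSF, a log2 fold change of 0.56 ± 0.12 (adjusted p = 0.00118), or 1.48-fold. Both GM-CSF libraries were above both DMEM libraries, and without mouse 112 the call was lost. With the mouse as a replicate block the count was 3, the additional members being Atp5b with 0.27 (adjusted p = 0.00413) and Ndufb6 with 0.43 (adjusted p = 0.00697). The median was 0.10, against -0.01 for all genes, and 63 members were above 0. The 1967 genes no longer than the median member had a median of 0.08, with 8.9% called higher. In STAT5 cKO cells edgeR called 0 members, where 13.3% of all genes were called higher and 10.2% lower, with 7 at an unadjusted p under 0.05 and 0 called by DESeq2. The smallest adjusted p was 0.0176, for Atp5s at -0.69, and the median was 0.05, or -0.01 without mouse 114. The same 1967 short genes had a median of 0.04 in STAT5 cKO cells. The interaction of genotype and GM-CSF called 0 of 78, against 3.11% of all genes, with 2 at an unadjusted p under 0.05, 0 by DESeq2 and the smallest adjusted p at 0.284 for Uqcrq.

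Compared directly, 4 members were called higher under 4T1 CM than under GM-CSF in STAT5 fl/fl cells, against 13.8% of all genes. In STAT5 cKO cells 6 were, against 16.6%. Above 0 were 67 of 78 members in STAT5 fl/fl and 68 in STAT5 cKO cells, with medians of 0.18 and 0.11. The 1967 genes no longer than the median member had medians of 0.15 and 0.10. All 4T1 CM libraries lay above all GM-CSF libraries in 53 and 17 members, against 35.0% and 27.4% of all genes. Atp5d was called in both, with 0.42 (adjusted p = 0.000876) and 0.38 (adjusted p = 0.000274). Atp5s measured 1.25 and 1.45 CPM under GM-CSF and 2.68 and 3.20 CPM under 4T1 CM in STAT5 fl/fl cells, 1.11 ± 0.28 on the log2 scale (adjusted p = 0.00363). It was also at 2.55 and 2.07 CPM under DMEM, so that GM-CSF held its lowest libraries, and its counts were low throughout. Sdhb with 0.39 (adjusted p = 0.00766) and Atp5mpl, a small membrane subunit of ATP synthase, with 0.45 (adjusted p = 0.00951) made up the rest in STAT5 fl/fl cells. In STAT5 cKO cells these were Ndufv1 with 0.33 (adjusted p = 0.0022), Ndufa7 with 0.30 (adjusted p = 0.0029), Ndufa13 with 0.31 (adjusted p = 0.00394), Ndufa12 with 0.33 (adjusted p = 0.00765) and Atp5f1 with 0.18 (adjusted p = 0.00971). In both genotypes edgeR called 0 lower, where 16.7% and 17.5% of all genes were called lower, with 0 at an unadjusted p under 0.05 and 0 by DESeq2. Without mouse 113 the count in STAT5 fl/fl cells was 0 and without mouse 112 it was 2. In STAT5 cKO cells it was 2 without mouse 114 and 1 without mouse 115, which also lowered the median from 0.11 to 0.03. These leave-out counts are not set against the share of all genes in the same fits.

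Between genotypes few members were called. Under DMEM 2 of 78 were higher in STAT5 cKO cells, against 0.938% of all genes, and edgeR called 0 lower, against 1.55%, with 4 lower at an unadjusted p under 0.05 and 0 by DESeq2. Ndufb6 (chr4:40270591-40279421), an accessory subunit of the complex I membrane arm, measured 13.6 and 13.2 CPM in STAT5 fl/fl and 18.7, 20.4 and 20.4 CPM in STAT5 cKO cells, a log2 fold change of 0.56 ± 0.12 (adjusted p = 0.00723). Sdhc (chr1:171127165-171150603) measured 67.9 and 70.5 against 83.3, 89.4 and 91.5 CPM, 0.35 ± 0.07 (adjusted p = 0.00869). The genotypes did not overlap in either gene, and leaving out any 1 of the 5 mice lost both calls. The median was 0.13 over members and 0.001 over all genes, with 60 members above 0. At an unadjusted p under 0.05 by edgeR 27 members differed, 23 of them higher, against 2824 of all 13005 genes in either direction. In 34 members all STAT5 cKO libraries lay above both STAT5 fl/fl libraries, against 19.4% of all genes. In 8 they lay below, against 20.5%. The 4 genes of complex II were above 0 in all 3 treatments, with medians of 0.24, 0.20 and 0.14 under DMEM, GM-CSF and 4T1 CM.

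Under GM-CSF Cox5b alone was lower in STAT5 cKO cells, where 6.24% of all genes were lower. In the other direction edgeR called 0 members higher, against 3.57% of all genes, with 13 higher at an unadjusted p under 0.05 and 0 by DESeq2. Cox5b (chr1:36691449-36693681), a zinc-binding subunit of complex IV on the matrix side, measured 65.3 and 56.6 CPM in STAT5 fl/fl and 41.2, 46.1 and 42.5 CPM in STAT5 cKO cells. The libraries did not overlap, and the log2 fold change was -0.49 ± 0.09 (adjusted p = 0.000572). Its levels under DMEM were 50.2 and 53.1 against 40.4, 44.0 and 43.1 CPM, and under 4T1 CM 61.4 and 59.6 against 48.1, 53.7 and 44.1 CPM. It was thus lower in STAT5 cKO libraries in every treatment, though called under GM-CSF alone, and without mouse 112 that call was lost.

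Under 4T1 CM 2 members were lower in STAT5 cKO cells, where 3.57% of all genes were lower. Of the 78 members edgeR called 0 higher, against 4.13% of all genes, with 7 higher at an unadjusted p under 0.05 and 0 by DESeq2. Atp5h (chr11:115415689-115419962), subunit d of the peripheral stalk, measured 66.8 and 69.5 CPM in STAT5 fl/fl and 52.6, 54.6 and 49.97 CPM in STAT5 cKO cells, -0.38 ± 0.07 (adjusted p = 0.00103). Ndufb11 (chrX:20615326-20617619), in the complex I membrane arm, measured 61.4 and 61.7 against 46.5, 48.6 and 46.0 CPM, -0.39 ± 0.08 (adjusted p = 0.00366). Neither gene overlapped between genotypes. The call of Atp5h was lost without mouse 113 and that of Ndufb11 without mouse 112, 113, 114 or 116. Cox4i1, the main form of its subunit, measured 265 and 291 against 213, 243 and 209 CPM (adjusted p = 0.0124), and Cox7a1 1.61 and 1.55 against 0.710, 0.614 and 0.770 CPM (adjusted p = 0.0184), neither called.

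**Figure D5:**
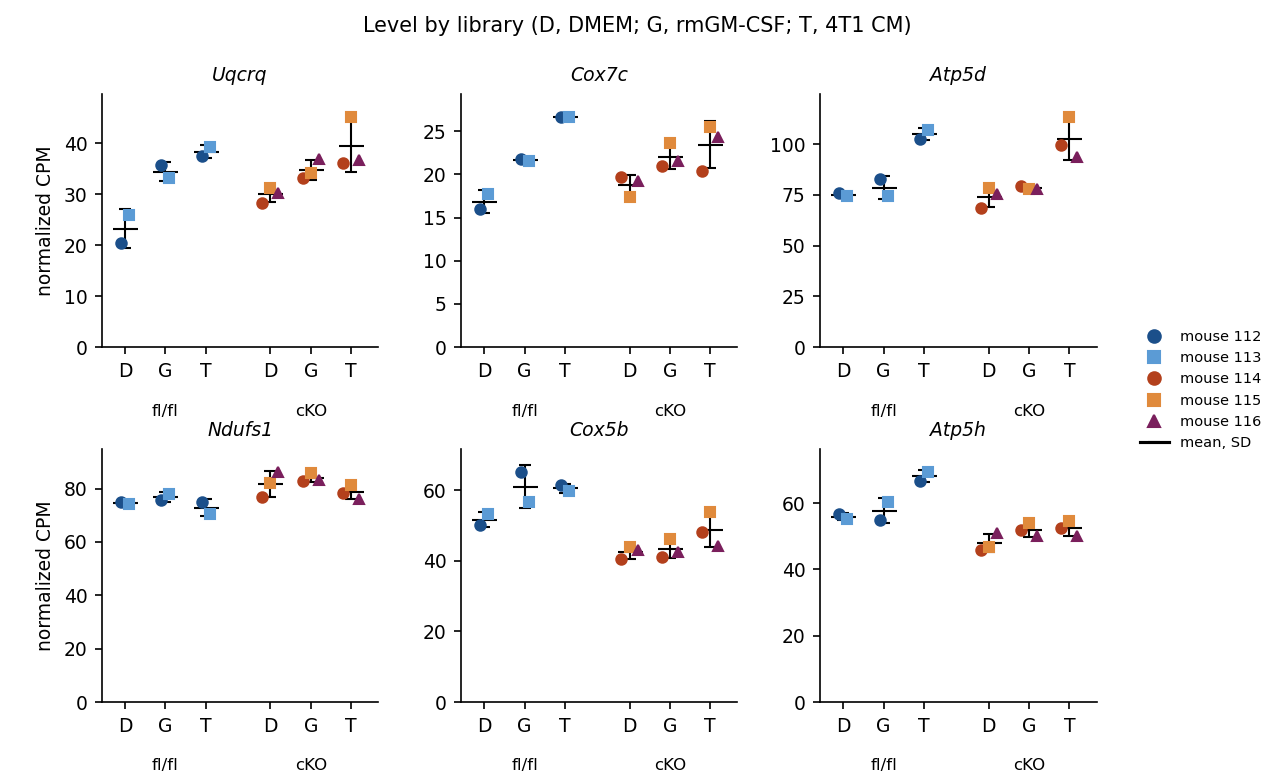
CPM of Uqcrq, Cox7c, Atp5d, Ndufs1, Cox5b and Atp5h in each library, by genotype and treatment, with the group mean as a line. Uqcrq, Cox7c and Atp5d are highest under 4T1 CM in STAT5 fl/fl cells, Ndufs1 is level, and under each treatment Cox5b and Atp5h lie lower in the STAT5 cKO libraries.

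Genes that serve the chain without being its subunits included some with larger changes than any member. Under 4T1 CM in STAT5 fl/fl cells the median of each such list, from -0.02 to 0.19, was below that of the members. In STAT5 cKO cells the list medians ran from -0.042 to 0.157, against 0.146 for the members. The highest, that of electron carriers and exchange, was above the members there. Counts in these lists under 4T1 CM are read against 19.2% of all genes higher and 18.2% lower in STAT5 fl/fl cells, and 19.3% and 18.4% in STAT5 cKO cells. Of 49 assembly factors 8 rose and 3 fell in STAT5 fl/fl cells, and 5 rose and 7 fell in STAT5 cKO cells. Cox17, which carries copper to complex IV, rose by 1.38 ± 0.10 (adjusted p = 5.42e-09) and 1.28 ± 0.08 (adjusted p = 1.02e-09), and Ttc19, which acts on complex III, by 1.25 and 1.16. Coa7, a complex IV factor, fell by 0.96 and 0.67, and Tmem126b, a complex I factor, by 0.59 and 0.54. Sdhaf2, which attaches the flavin to Sdha, measured 37.9 and 39.4 CPM under DMEM and 58.1 and 60.1 CPM under 4T1 CM in STAT5 fl/fl cells, and 36.0, 38.1 and 37.5 against 34.7, 40.5 and 36.3 CPM in STAT5 cKO cells. It rose in STAT5 fl/fl libraries without overlap and was level in STAT5 cKO libraries, and its interaction was -0.61 ± 0.10 (adjusted p = 0.00227), a call lost without mouse 112, 113, 114 or 116. The call of Coa7 in STAT5 fl/fl cells was lost without mouse 113. Under GM-CSF, where 15.9% of all genes were higher and 12.6% lower in STAT5 fl/fl cells and 13.3% and 10.2% in STAT5 cKO cells, 2 assembly factors rose and 3 fell in STAT5 fl/fl cells, and 2 rose and 5 fell in STAT5 cKO cells.

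Of 25 genes for electron carriers and exchange, 4 rose and 2 fell in STAT5 fl/fl cells, and 5 rose and 2 fell in STAT5 cKO cells. Cycs, which encodes cytochrome c, rose by 1.03 ± 0.14 and 0.60 ± 0.11, and Coq10b, a ubiquinone-binding protein, by 1.28 and 1.21. Under GM-CSF 5 of the 25 rose and 3 fell, and 3 rose and 3 fell. Of 20 citric acid cycle genes edgeR called 5 higher and 0 lower in STAT5 fl/fl cells, with 1 lower at an unadjusted p under 0.05 and 0 called lower by DESeq2, and 6 rose and 1 fell in STAT5 cKO cells. Mdh2, malate dehydrogenase, rose by 0.50 and 0.46, and Acod1, which makes itaconate from a cycle intermediate, by 1.63 and 1.55. Under GM-CSF 5 and 3 cycle genes rose, of which Acod1 rose by 5.91 and 5.46. Of 21 regulators of mitochondrial biogenesis 5 rose and 4 fell in STAT5 fl/fl cells, and 6 rose and 4 fell in STAT5 cKO cells. Hif1a rose by 1.599 and 1.83 and Nrf1, a regulator of respiratory genes, by 0.73 and 0.44, whereas Twnk, the mitochondrial DNA helicase, fell by 1.06 and 1.04 and Polrmt, the mitochondrial RNA polymerase, by 0.78 and 1.01. Under GM-CSF 8 regulators rose and 2 fell, and 6 rose and 3 fell. Of 23 import genes 3 rose and 1 fell in STAT5 fl/fl cells, among them the channel gene Timm17a with 0.44. In STAT5 cKO cells edgeR called 2 import genes higher and 0 lower, with 4 lower at an unadjusted p under 0.05 and 0 called lower by DESeq2, and Timm17a rose by 0.28. Under GM-CSF 4 import genes rose in each genotype. In STAT5 fl/fl cells the 4T1 CM call of Acod1 was lost without either mouse, that of Timm17a without mouse 112 and that of Polrmt without mouse 113. The call of Timm17a in STAT5 cKO cells was lost without any 1 of the 3 mice.

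Between genotypes the shares of all genes higher and lower in STAT5 cKO cells were 0.938% and 1.55% under DMEM, 3.57% and 6.24% under GM-CSF, and 4.13% and 3.57% under 4T1 CM. Of the 49 assembly factors 1 was lower under GM-CSF, Ttc19 with -0.74 (adjusted p = 0.00198), and 1 under 4T1 CM, Sdhaf2 with -0.67 (adjusted p = 6.82e-06). Of the 20 citric acid cycle genes 1, 2 and 2 were higher under DMEM, GM-CSF and 4T1 CM. Ogdh, a subunit of the oxoglutarate dehydrogenase, was higher in all 3, with 0.27, 0.29 and 0.39, Dlat, of the pyruvate dehydrogenase, under GM-CSF with 0.31, and Acod1 under 4T1 CM with 1.11 (adjusted p = 0.00433). Of the 25 carrier and exchange genes Ucp2, an inner membrane carrier, was lower under GM-CSF with -0.32, and 2 were higher under 4T1 CM, Coq8a, of ubiquinone synthesis, with 0.98 (adjusted p = 0.0035) and Etfdh, which passes electrons to ubiquinone, with 0.37. Of the 21 regulators Nrf1 was lower under 4T1 CM with -0.30 (adjusted p = 0.00938), a call that was lost in DESeq2 and without any 1 of the 5 mice. Each of these calls except that of Sdhaf2 was lost under at least 1 alternative.

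Of the partner subunits encoded in mitochondrial DNA, 11 were tested, and 3 were lower in STAT5 cKO cells under each treatment, where 1.55%, 6.24% and 3.57% of all genes were lower under DMEM, GM-CSF and 4T1 CM. For mt-Nd1, a core subunit of complex I, the log2 fold change was -0.51, -0.55 and -0.51 under DMEM, GM-CSF and 4T1 CM, and for mt-Nd2, also of complex I, it was -0.55, -0.59 and -0.51. The level of mt-Nd1 was 2276 and 2230 CPM in STAT5 fl/fl and 1636, 1425 and 1699 CPM in STAT5 cKO cells under DMEM, without overlap (adjusted p = 0.00271), and that call was lost without mouse 112, 113 or 114. Each of the calls between genotypes in these genes was lost without at least 1 mouse. The remaining gene was mt-Cytb, the redox subunit of complex III, under GM-CSF and 4T1 CM with -0.45 and -0.43. Under DMEM it was mt-Atp8, which rests on the DMEM library of mouse 112 at 118 CPM, against 0.491 to 1.96 CPM in the other 14.

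Under 4T1 CM 2 of these 11 rose and 1, again mt-Atp8, fell in STAT5 fl/fl cells, where 19.2% and 18.2% of all genes did. The sign of mt-Atp8 turned without mouse 112. In STAT5 cKO cells edgeR called 5 higher and 0 lower, against 19.3% and 18.4% of all genes, with 0 lower at an unadjusted p under 0.05 and 0 called lower by DESeq2. The core complex I subunit mt-Nd4 rose by 0.42 and 0.39 and the catalytic complex IV subunit mt-Co1 by 0.31 and 0.32 in STAT5 fl/fl and STAT5 cKO cells. Both calls were lost without mouse 112 or 113 in STAT5 fl/fl cells and without mouse 114 in STAT5 cKO cells.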

How the data were processed

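Bone marrow-derived macrophage RNA was sequenced as stranded TruSeq libraries. The authors trimmed reads with Trimmomatic 0.33, aligned them with HISAT2 2.1.0 and deposited counts per gene from featureCounts 1.6.2 with Ensembl GRCm38 annotation, with strand, keeping pairs whose ends both mapped and setting 10 as the lowest mapping quality. No normalization had been applied to the deposited counts. A STAT5 fl/fl replicate had been removed by the authors' quality control. The depth of each library is its total count, given with the results.

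Counts were tested in edgeR 4.0.16 (R 4.3.3) with quasi-likelihood F-tests on a model of 6 groups of genotype and treatment over all 15 libraries, RLE normalization, genes with CPM above 1 in at least 2 libraries, and Benjamini-Hochberg adjustment over all 13005 tested genes. A member was called at an adjusted p under 0.01, filter, normalization and threshold being those of the study's methods. RPKM divided normalized CPM by the exon length in the table. Code was tested on simulated data. Alternatives were DESeq2 1.42.0, limma 3.58.1 with the mouse as a random effect, the likelihood ratio test, the legacy quasi-likelihood test (added after seeing the data), TMM, other filters, thinning, fits of the compared groups alone, a threshold of 0.05, leaving out each mouse, and the mouse as a replicate block.

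The title number was read as the mouse. Same-numbered libraries deviated together, with a mean correlation of 0.157 (9 pairs, 0.0548 to 0.214) in STAT5 cKO and 0.142 (0.0926 to 0.213) in STAT5 fl/fl cells, where the deviations of the 2 mice mirror each other and the correlations are 3 distinct values. Members, gene lists and motifs were chosen with earlier results of these data known. Genes were named by rule, namely up to 10 called members per direction and comparison by adjusted p, the highest and lowest level per complex, the isoform and core genes, and up to 5 called genes per list. Others named were chosen after their values were seen. Promoters came from RefSeq.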

Additional observations from a re-analysis of the deposited data

How the results depend on the processing

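Direction was the same under every alternative for the medians of the 6 treatment comparisons, except the GM-CSF median in STAT5 cKO cells, and none of the 54 member calls reversed. Of these calls 4 held under every alternative run. Counts of called members depended on the settings. The share of all genes called under each setting is not set beside the counts in this section. They therefore do not compare the members with all genes. With the threshold at 0.05 the count under 4T1 CM against DMEM was 45 in STAT5 fl/fl and 24 in STAT5 cKO cells, under GM-CSF against DMEM 7 and 2, and under 4T1 CM against GM-CSF 17 and 12. Between genotypes it was 9, 6 and 8 under DMEM, GM-CSF and 4T1 CM. The likelihood ratio test and DESeq2 gave 5, 2 and 5 between genotypes and 2 under GM-CSF in STAT5 fl/fl cells, and the former gave 1 under GM-CSF in STAT5 cKO cells. Fits of the compared groups alone gave 8 under GM-CSF and 0 under 4T1 CM between genotypes, 4 under GM-CSF in STAT5 fl/fl cells, and in STAT5 cKO cells 4 for 4T1 CM against DMEM and 3 for 4T1 CM against GM-CSF. Thinning to equal depth gave 3 for the last comparison and 2 under GM-CSF in STAT5 fl/fl cells, where the mouse as a random effect also gave 2.

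With the mouse as a replicate block the count under GM-CSF in STAT5 fl/fl cells was 3. It was 31 and 12 for 4T1 CM against DMEM in STAT5 fl/fl and STAT5 cKO cells, and 6 and 7 for 4T1 CM against GM-CSF. A paired fit could not be made between genotypes within a treatment, where no mouse is shared.

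Leaving out each mouse gave 0 to 1 calls between genotypes under DMEM, 0 to 1 under GM-CSF and 0 to 5 under 4T1 CM. Within STAT5 fl/fl cells the ranges were 0 to 2 under GM-CSF, 3 to 29 under 4T1 CM and 0 to 5 for 4T1 CM against GM-CSF. Within STAT5 cKO cells they were 2 to 18 under 4T1 CM, with a median log2 fold change of 0.0867 to 0.254, and 1 to 5 for 4T1 CM against GM-CSF. The median interaction of genotype and 4T1 CM ranged from -0.184 to -0.0277. Where 1 STAT5 fl/fl library was left it was assumed to vary like the other groups. With 2 or 3 mice per group the calls rest on single animals to this degree, and the cause of each change was not tested.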
